A study of Mus musculus with 5 samples.

Results

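The regions described here are stretches of open chromatin that were called in every library of a study of mouse hindlimb skeletal muscle. They were chosen from the 91265 peaks of the wild-type (WT) E18.5 library by 1 rule: a peak was a member when it overlapped, by at least 1 bp, a peak of each of the other 4 libraries. This held for 31606 of the 91265 peaks, or 34.6%. The other 59659 E18.5 peaks lacked an overlap in at least 1 library and are called the other peaks. Each group was 1 library that joined snRNA-seq and snATAC-seq of the same nuclei (10x multiome): Cacna1s-/- (KO) at E18.5, WT at E14.5, WT at E18.5, WT at postnatal day 5 (P5), and WT adult of 8 weeks, male and female. All mice were C57BL/6N. KO mice carried the tm1.1(KOMP)Vlcg allele, which deletes coding sequence of Cacna1s, the voltage sensor of muscle contraction, and they are paralysed and die at birth. Each library pooled many hindlimbs, namely 26 for KO and 56, 14, 8 and 4 for WT E14.5, E18.5, P5 and adult. With 1 library a group no difference has a check by replicates, no test was made, and every interval is a 95% interval that covers counting error only.

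Chromatin at a gene's start site and at many distant regulatory elements is kept free of packed nucleosomes, so that the transposase used for ATAC-seq can cut there, and a peak is a place where such cuts pile up. Start sites of genes that nearly every cell uses, such as those for ribosomal proteins, proteasome subunits and the transcription machinery, are commonly rich in CpG and carry sites for general activators such as NRF1, YY1 and ETS proteins. Muscle genes are read mainly in myonuclei, the nuclei of the multinucleated fibers, where the MyoD family binds E-boxes and MEF2 proteins bind AT-rich sites at promoters and enhancers.

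Promoters from both ends of the range of members are printed first, to show what a start site that is alike in both groups of nuclei and a start site of a fiber gene look like. Each run is the 250 bases before a RefSeq start site in GRCm38.p6, written 5′ to 3′ on the strand of the gene, with selected motif matches in capitals. Other motifs that were searched, such as GC boxes, stay in lower case. The first set lies under members whose counts differed by less than 2-fold between nuclei rich and poor in Ttn RNA (defined below). Rps27 encodes a ribosomal protein, Wapl the protein that releases cohesin from DNA, and Polr2j a subunit of RNA polymerase II. The capitals mark a YY1 site (AAGATGGC) in Rps27, an NRF1 site (GCGCANGCG, here on the other strand) in Wapl, and an NRF1 site (also on the other strand) followed by an ETS site (CCGGAAGT) in Polr2j.
Rps27 (chr3:90213649-90213898, - strand): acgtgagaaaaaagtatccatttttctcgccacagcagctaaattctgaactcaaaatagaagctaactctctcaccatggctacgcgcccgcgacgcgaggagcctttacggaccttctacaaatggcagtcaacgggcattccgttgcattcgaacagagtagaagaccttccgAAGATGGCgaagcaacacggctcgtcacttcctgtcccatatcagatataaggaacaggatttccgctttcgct
Wapl (chr14:34673678-34673927, + strand): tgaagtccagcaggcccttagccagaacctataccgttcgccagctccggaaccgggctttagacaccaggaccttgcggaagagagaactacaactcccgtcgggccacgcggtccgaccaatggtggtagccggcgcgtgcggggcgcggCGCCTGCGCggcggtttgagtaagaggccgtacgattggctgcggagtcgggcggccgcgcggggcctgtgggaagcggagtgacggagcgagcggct
Polr2j (chr5:136116441-136116690, + strand): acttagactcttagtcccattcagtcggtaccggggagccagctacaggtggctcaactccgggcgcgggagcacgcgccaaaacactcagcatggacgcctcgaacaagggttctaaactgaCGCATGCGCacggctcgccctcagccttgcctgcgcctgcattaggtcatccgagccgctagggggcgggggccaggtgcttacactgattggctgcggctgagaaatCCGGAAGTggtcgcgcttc

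The second set lies under peaks that were at least 2-fold higher in Ttn-rich nuclei. Ckm encodes muscle creatine kinase, Ttn the giant sarcomere protein titin, Cacna1s the voltage sensor that the KO lacks, Ckmt2 the mitochondrial creatine kinase of muscle, and Mylpf the fast regulatory myosin light chain. The capitals mark the myogenic E-box (CAGCTG) in Ckm, Cacna1s, Ckmt2 and Mylpf and a match to the MEF2 consensus in Ttn. Of these 5, the Mylpf promoter is shown as a contrast, since its peak was called in 4 of the 5 libraries and is not a member. A match of letters is a description of the sequence and not a bound site.
Ckm (chr7:19410844-19411093, + strand): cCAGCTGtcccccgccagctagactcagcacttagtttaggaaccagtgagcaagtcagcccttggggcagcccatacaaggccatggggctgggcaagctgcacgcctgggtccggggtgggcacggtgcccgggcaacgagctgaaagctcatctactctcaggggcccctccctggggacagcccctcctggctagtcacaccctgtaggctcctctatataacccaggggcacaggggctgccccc
Ttn (chr2:76982548-76982797, - strand): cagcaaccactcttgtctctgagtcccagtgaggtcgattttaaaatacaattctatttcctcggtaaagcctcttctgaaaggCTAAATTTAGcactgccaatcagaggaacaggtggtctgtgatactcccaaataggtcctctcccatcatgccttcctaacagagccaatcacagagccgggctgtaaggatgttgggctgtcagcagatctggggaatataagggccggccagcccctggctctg
Cacna1s (chr1:136052561-136052810, + strand): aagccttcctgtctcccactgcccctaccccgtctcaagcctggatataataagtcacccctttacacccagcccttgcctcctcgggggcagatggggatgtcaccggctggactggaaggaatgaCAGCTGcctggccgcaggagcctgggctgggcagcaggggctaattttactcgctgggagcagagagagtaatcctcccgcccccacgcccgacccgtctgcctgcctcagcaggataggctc
Ckmt2 (chr13:91876886-91877135, - strand): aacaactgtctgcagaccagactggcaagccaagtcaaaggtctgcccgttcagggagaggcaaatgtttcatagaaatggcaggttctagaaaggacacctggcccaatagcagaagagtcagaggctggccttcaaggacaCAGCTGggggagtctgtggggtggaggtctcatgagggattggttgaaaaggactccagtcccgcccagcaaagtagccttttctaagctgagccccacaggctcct
Mylpf (chr7:127211358-127211607, + strand): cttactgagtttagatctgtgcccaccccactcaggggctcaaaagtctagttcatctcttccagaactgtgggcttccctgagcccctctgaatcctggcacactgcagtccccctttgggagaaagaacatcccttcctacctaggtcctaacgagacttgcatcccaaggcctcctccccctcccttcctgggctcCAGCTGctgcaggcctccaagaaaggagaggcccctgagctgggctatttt

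Of the other peaks, 14742 were called in 4 of the 5 libraries, 16392 in 3, 14717 in 2 and 13808 in WT E18.5 alone. Among those that missed 1 library, the missing one was KO for 2926 peaks, WT E14.5 for 5687, P5 for 1701 and adult for 4428. The number of peaks in each list was 61874 in KO, 65624 in WT E14.5, 91265 in WT E18.5, 67013 in P5 and 81124 in adult, and 51.1%, 48.2%, 34.6%, 47.2% and 39.1% of them lay on members in that order. The median of the smallest overlap of a member with any library was 829 bp, for a median width of 887 bp in members and 875 bp in the other peaks. The edge of the rule held few peaks. The smallest overlap was at most 10 bp in 28 members, with a median of 295 ATAC counts, and 21 other peaks came within 10 bp of a peak in every library that they missed, with a median of 244. Calling a peak needs counts, so the rule favours regions with many of them, and the median of 479 counts in members against 144 in the other peaks describes the choice. Members held 78.2% of peak counts in KO, 75.3% in WT E14.5, 70.9% in WT E18.5, 76.8% in P5 and 69.3% in adult.

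After limits on depth and mitochondrial reads, 3228 KO, 4812 WT E14.5, 4261 WT E18.5, 3747 P5 and 5106 adult nuclei remained, with 21063081 to 29574992 RNA UMIs (unique molecular identifiers) and 13899642 to 45268051 peak counts a library. Any pair of libraries shared 15 to 42 barcodes. Nuclei in which Ttn made up at least 1% of gene UMIs are called Ttn-high and the rest Ttn-low. There were 987 Ttn-high and 2241 Ttn-low nuclei in KO, 1867 and 2945 in WT E14.5, 1579 and 2682 in WT E18.5, 1733 and 2014 in P5, and 4429 and 677 in adult. Sorted PCM1-positive and PCM1-negative nuclei were mixed in equal volumes before loading, so these shares need not be those of the tissue. All 8 myonuclear markers were higher in Ttn-high nuclei in every library and summed to 59746 CPM (counts scaled to a common total) in Ttn-high against 1982 CPM in Ttn-low nuclei of WT E18.5, but Ttn is 1 of the 8 and made the split. The 8 mesenchymal markers summed to 1108 CPM in Ttn-high and 5889 CPM in Ttn-low nuclei there, while the 6 keratinocyte markers summed to 287 and 8.87 CPM. Over the 5 libraries that last sum ran to 1051 CPM in Ttn-high nuclei and 67.8 CPM in Ttn-low nuclei, with 1 to 3 of the 6 genes higher in Ttn-high nuclei and Krt5 at 0 in those of KO, WT E18.5, P5 and adult. Krt14 was also at 0 in Ttn-high nuclei of WT E18.5, P5 and adult, so the keratinocyte sum does not by itself mark keratinocytes. The 6 Schwann and glia markers summed to 101 CPM in Ttn-high and 62.7 CPM in Ttn-low nuclei of WT E18.5. Of these, 2 of 6 were higher in Ttn-high nuclei, and in KO, P5 and adult the sum was lower there. The part of other cells in the results was not tested. Cacna1s RNA, which checks the KO label, came to 8 UMIs in KO Ttn-high nuclei (0.720 CPM, exact Poisson interval 0.311 to 1.42), against 2390 UMIs in those of WT E18.5 (189 CPM, 181 to 196), and its levels in the other WT libraries were 208 CPM at E14.5, 349 CPM at P5 and 326 CPM in adult.

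Members lay at start sites far more often than the other peaks. The gene rows of the same file give a start-site interval for each of 32272 genes, which spans the annotated starts of the gene. Of the members, 44.2% overlapped such an interval (exact binomial interval 43.6 to 44.7%), against 13.9% of the other peaks (13.6 to 14.2%). The share among other peaks was 16.4% for those found in 4 of the 5 libraries, 14.1% in 3, 13.3% in 2 and 11.7% in 1, so it stepped down slowly below the full set of libraries and steeply at it. Within 1 kb of an interval lay 48.1% of members and 16.8% of the other peaks, between 1 and 10 kb 15.7% and 18.9%, and beyond 10 kb 36.2% and 64.3%. The median distance was 1858 bp for members and 19682 bp for the other peaks. Some intervals are wide (5361 exceed 1000 bases, that of Ttn spans 145734 and the widest 2857160), and with narrower ones alone 30.3% of members and 3.22% of the other peaks overlapped. By single transcript starts of GENCODE vM21, 42.1% of members held a start, 4.17% lay in exons, 27.4% in introns and 26.3% between genes, against 7.36%, 5.11%, 47.6% and 40.0% of the other peaks.

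The number of counts a peak held moved with its position, and members hold more counts. Peaks were therefore also compared within ranges of their E18.5 count. Below 100 counts, 13.2% of 190 members and 10.5% of the other peaks overlapped an interval, and from 100 to 200 counts 13.9% and 13.4%. From 200 to 400 counts the shares were 20.0% and 16.3%, from 400 to 800 counts 39.5% and 21.8%, and at 800 or more 81.7% of 10193 members against 41.2% of 262 other peaks. Members and other peaks therefore stood close together below 200 counts and far apart above 400. These ranges are wide and the top one is open, so counts were not matched within them. The 95th percentile of counts was 2573 in members and 397 in the other peaks. The part of depth in the gap was not tested.

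**Figure D1:**
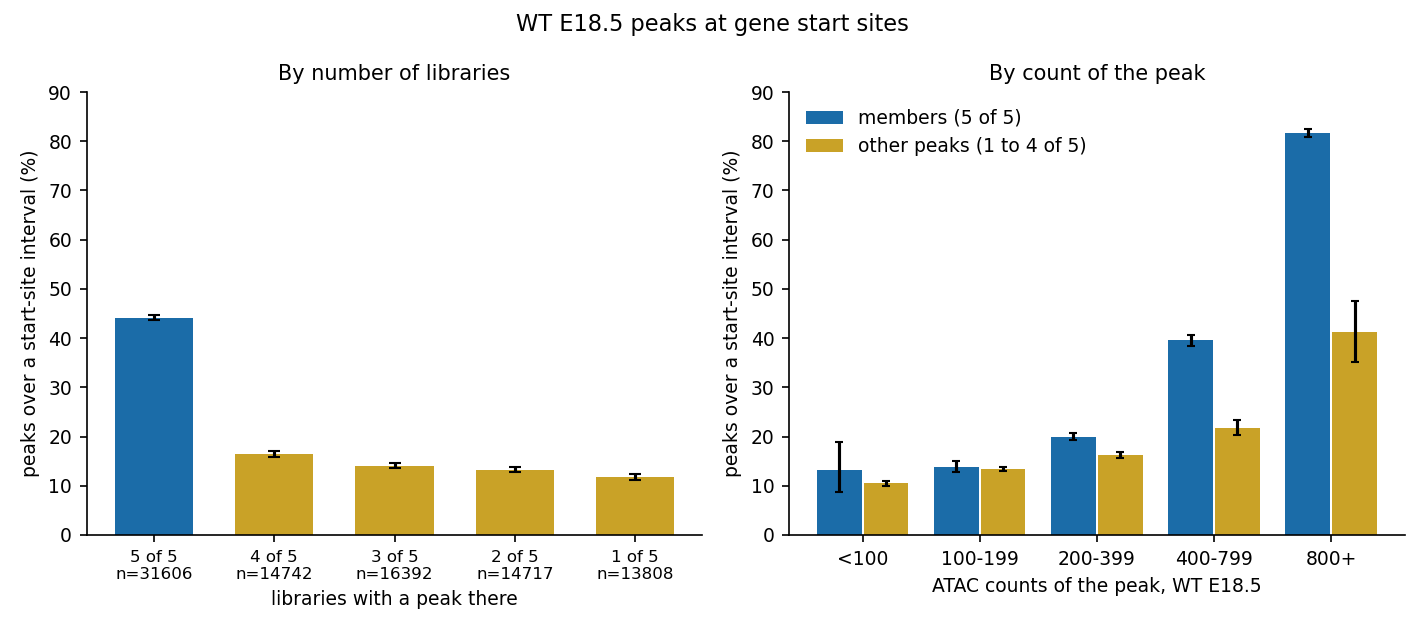
Percent of WT E18.5 peaks that overlap a start-site interval, by the number of libraries in which they were called (left) and by range of E18.5 ATAC counts for members and other peaks (right); lines on the bars are exact binomial 95% intervals. Members stand at 44.2% overlap against 11.7 to 16.4% for peaks called in fewer libraries, and the gap opens above 400 counts.

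Genes with a member at the start site were mostly genes with RNA in these nuclei. A member overlapped the interval of 13722 of the 32272 genes (42.5%), another E18.5 peak alone that of 2509 genes (7.78%), and no peak that of 16041 genes (49.7%). At least 10 RNA UMIs at E18.5 were found for 93.5% of genes with a member, 62.7% of those with another peak and 24.2% of those with none. The median RNA level in Ttn-high nuclei of WT E18.5 was 15.1, 0.552 and 0 CPM in that order. Read the other way, 70.2% of the 18278 genes with at least 10 UMIs had a member at the start. The 1467 olfactory and vomeronasal receptor genes, which are read in sensory neurons, had a member at 4 start sites (0.273%).

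The lists of genes of general use were covered almost in full. A member lay over the start site of 62 of 64 ribosomal protein genes (all but Rpl7 and Rpl35, and the RefSeq promoter of Rpl35 did lie under a member, with 494 Ttn-high and 706 Ttn-low counts), 31 of 31 proteasome subunit genes, 27 of 27 genes of RNA polymerase II and general transcription factors, and 10 of 11 genes of CTCF and cohesin, where Nipbl had a peak that was not a member. Clock genes had one at 17 of 18, immediate early genes at 16 of 17 and myogenic and maturation factors at 27 of 31, with Pax3 and Nfib among the 4 without. Fatty acid oxidation genes followed at 18 of 20, glycolysis and phosphagen genes at 17 of 21, excitation-contraction coupling at 14 of 18, fusion and the neuromuscular junction at 13 of 19, and imprinted growth genes and posterior Hox genes at 10 of 17 and 10 of 18. Adult fast sarcomere genes had a member at 11 of 16 start sites. The list of embryonic and slow sarcomere genes was covered least, at 3 of 14.

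Sarcomere genes without a member over the start-site interval had there a peak in part of the libraries or none at E18.5. Of the adult fast list, the myosin gene Myh1 had an E18.5 peak called in part of the libraries, and Actn3, Mybpc2, Myh2 and Myh4 had none at E18.5. Of the embryonic and slow list, 8 genes had such a partial peak (Myh3, Myh8, Tnnt2, Actc1, Tnni1, Myl3, Tnnt1 and Mybph) and Tnnc1, Myh7 and Myl2 had none. The RefSeq promoters of these genes need not lie in the intervals. That of Tnnt1 lay under a member, with 446 Ttn-high and 160 Ttn-low counts, and those of Mybpc2 (379 and 135) and Myl2 (255 and 81) under peaks of 4 libraries. Across the whole gene body, the number of peaks in KO, WT E14.5, WT E18.5, P5 and adult was 0, 0, 0, 0 and 1 in Myh2, 0, 0, 0, 1 and 1 in Myh4, and 1, 2, 1, 1 and 0 in Myh8. Reads of these near-identical myosin genes can be shared among them.

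Most members were alike in Ttn-high and Ttn-low nuclei. At E18.5 the median log2 ratio of Ttn-high over Ttn-low counts, each as CPM of peak counts, was −0.01 for members and −0.30 for the other peaks. Members held 70.9% of the counts that set this scale, so their median lies near 0 in part by the scaling. As mean counts per nucleus the medians were 0.21 for members and −0.077 for the other peaks. At least 2-fold higher in Ttn-high nuclei were 4457 members (14.1%), beside 18.2% of all E18.5 peaks with at least 20 counts, and 2764 were at least 2-fold lower (8.75%), beside 23.6% of all. In the other peaks 20.4% were higher and 31.4% lower. In each library, read on its own peak list, a smaller share of members than of all peaks passed 2-fold in each direction. In KO, 12.4% of members were higher and 12.7% lower, beside 17.5% and 20.6% of all peaks. In WT E14.5 11.3% were higher and 11.8% lower, beside 22.4% and 15.5%. At P5 14.46% were higher and 11.6% lower, beside 18.53% and 22.9%, and in adult 15.6% and 20.9%, beside 30.9% and 25.9%. Members are deeper, and a ratio from few counts passes 2-fold more easily by counting error. Among E18.5 peaks with at least 100 counts, 14.09% of members were higher and 8.75% lower. The other peaks stood at 21.38% and 31.55% there. The part of depth in these shares was not tested. A summed count cannot tell apart more nuclei that are open at a site and more counts in each open nucleus.

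Position changed the picture within the members. Of members that overlapped a start-site interval, 6.53% were higher in Ttn-high nuclei and 4.92% lower, against 18.8% and 24.7% of other peaks that did. From 1 bp to 10 kb away the shares were 17.0% and 8.59% in members and 21.5% and 24.8% in the other peaks. Beyond 10 kb they were 21.8% and 13.5% in members and 20.4% and 35.1% in the other peaks. Distal members thus held a larger share past 2-fold in either direction than members at start sites.

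**Figure D2:**
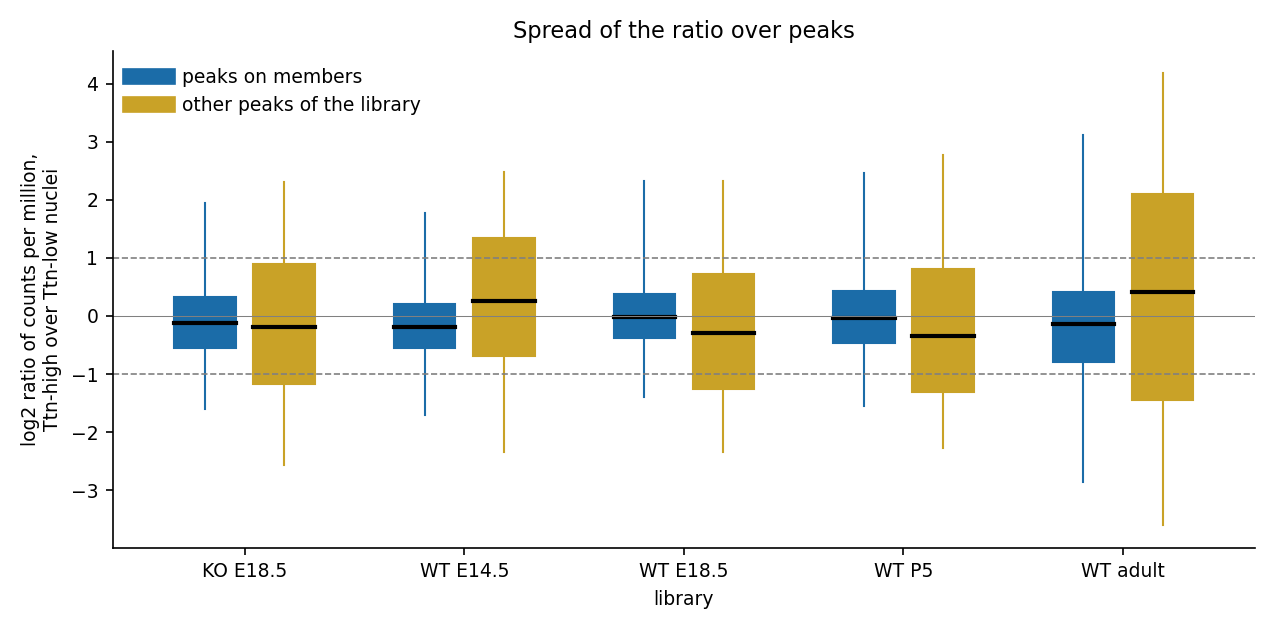
Spread of the log2 ratio of Ttn-high over Ttn-low ATAC CPM in each library, for peaks on members and for the other peaks of that library; black bars are medians, boxes the quartiles, thin lines run from the 5th to the 95th percentile of peaks and dashed lines mark 2-fold. On the CPM scale members have a median of −0.01 at WT E18.5, against −0.30 for the other peaks. As mean counts per nucleus these medians were 0.21 and −0.077. The boxes of members are narrower in each of the 5 libraries.

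A member that differed at E18.5 mostly kept its side in the other libraries. Of the 4457 members that were higher in Ttn-high nuclei of WT E18.5, 74.99% were also at least 2-fold higher in KO, 68.4% in WT E14.5, 83.7% at P5 and 75.8% in adult, and 2188 (49.1%) in all 4. At least 2-fold on the opposite side were 0 of them in KO, 44 in WT E14.5, 10 at P5 and 179 in adult. Of the 2764 lower members, 73.8% were lower in KO, 72.2% in WT E14.5, 76.2% at P5 and 83.2% in adult, and 1346 (48.7%) in all 4. The opposite side held 0, 5, 2 and 37 of them in that order. Of all peaks of each library, 17.5% were at least 2-fold higher in KO, 22.4% in WT E14.5, 18.53% at P5 and 30.9% in adult. At least 2-fold lower were 20.6%, 15.5%, 22.9% and 25.9% of them in that order. The side in other libraries was counted for members only. Whether other peaks past 2-fold keep their side as often was not tested.

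The 10 members with the largest Ttn-high over Ttn-low ratio at E18.5 (among those with at least 200 counts) lay over a GENCODE start in 2 cases and away from one in 8. The first, chr16:76496859-76497811 in an intron 5098 bp from the interval of Gm45030, had 249 counts in Ttn-high and 10 in Ttn-low nuclei, a 36.2-fold ratio of CPM (exact conditional interval 19.4 to 76.4). Its log2 ratio was 3.29 in KO, 2.93 in WT E14.5, 5.18 in WT E18.5, 3.76 at P5 and 3.01 in adult. These sizes depend on how nuclei are split, since the 10 log2 ratios, 4.50 to 5.18 here, were 2.71 to 3.24 with Ttn-high set at 2% and 3.23 to 4.41 with no filter on nuclei, over the same 10 members. A peak 4773 bp from the start interval of Myod1, the master regulator of the muscle lineage, lay at chr7:46370843-46371701 and had 381 Ttn-high against 24 Ttn-low counts (23.1-fold, 15.3 to 36.5), with log2 ratios of 3.51, 2.60, 4.53, 4.02 and 5.47 in the same order. This peak was higher in Ttn-high nuclei in all 5 libraries, and its ratio was above that of the peak over the Myod1 start itself, given below, in each of them but adult. Next to Ampd1, the AMP deaminase of muscle, a member over a GENCODE start at chr3:103082544-103083424 had 492 Ttn-high against 27 Ttn-low counts (26.5-fold). At the start of Csrp3, the muscle LIM protein, chr7:48847785-48848644 had 309 against 19, and its adult counts were 145 against 0. Vgll2, a cofactor of TEAD proteins in muscle, had a member in an intron 25255 bp from its interval with 207 against 13.

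The other 5 lay at chr13:83207336-83208203 (303 against 15 counts, 141879 bp from the nearest interval), chr8:47604200-47605092 (236 against 13, nearest Gm45576), in introns of the calcium release channel gene Ryr3 (289 against 17) and of the histone deacetylase gene Hdac9 (311 against 20), and 4857 bp from Zbtb40 (345 against 21). At the chromosome 8 member adult counts were 1190 in Ttn-high and 0 in Ttn-low nuclei. Nearness to a gene does not show that the region acts on it.

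Of the 10 members with the smallest ratio, 0 lay over a GENCODE start, and 1, in Sox2ot, lay inside a wide start-site interval. The lowest, at chr2:110268974-110269864 in an intron 35877 bp from the interval of Bbox1, had 14 Ttn-high against 261 Ttn-low counts, 12.8-fold lower in CPM (7.51 to 23.8). Its log2 ratio was −3.16 in KO, −1.90 in WT E14.5, −3.68 in WT E18.5, −3.15 at P5 and −2.57 in adult. The 10 log2 ratios, −3.68 to −3.20 here, were −4.69 to −3.34 with Ttn-high set at 2% and −3.09 to −2.14 with no filter on nuclei. Next came a member whose nearest interval, that of Dhx35, was 548928 bp away, with 21 against 359 counts. All 20 of these members kept their sign in the 5 libraries, and 19 were past 2-fold in each. The exception was a member 177616 bp from Gm31693, with a log2 ratio of −3.21 at WT E18.5 and −0.37 in WT E14.5. Since these 20 were picked by their E18.5 ratio, that ratio is a description, and the other 4 libraries are the measurements not used for the choice.

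The members with the highest E18.5 counts included several in repeat sequence. Gm26917 (chr17:39842957-39843811, 10584 Ttn-high and 31795 Ttn-low counts), AY036118 (chr17:39847977-39848868, 8318 and 28250) and Gm10800 (chr2:98666662-98667464, 14838 and 14095) led. The 8 of the top 10 that were not at Dnpep or Hdgfl2 held 171058 counts, 0.470% of all peak counts. Gm26917 and AY036118 hold sequence of the ribosomal RNA repeat and Gm10800 and Gm10801 satellite repeat, so that reads there can come from other copies and their values are uncertain. These genes and AC149090.1 have an annotated start under the member, while the members nearest Gtpbp4, Gm20546 and Gm11670 lay away from one. Whether AC149090.1 and those nearest Gtpbp4, Gm20546 and Gm11670 hold repeats was not examined. The rest of the top 10 lay over ordinary start sites. Dnpep, an aminopeptidase gene, had 3009 Ttn-high and 4644 Ttn-low counts at chr1:75317228-75318143, with log2 ratios of −0.01 in KO, −0.41 in WT E14.5, −0.09 in WT E18.5, −0.02 at P5 and 0.09 in adult. Hdgfl2, a chromatin reader gene, had 2431 and 4371 at chr17:56078899-56079818.

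**Figure D3:**
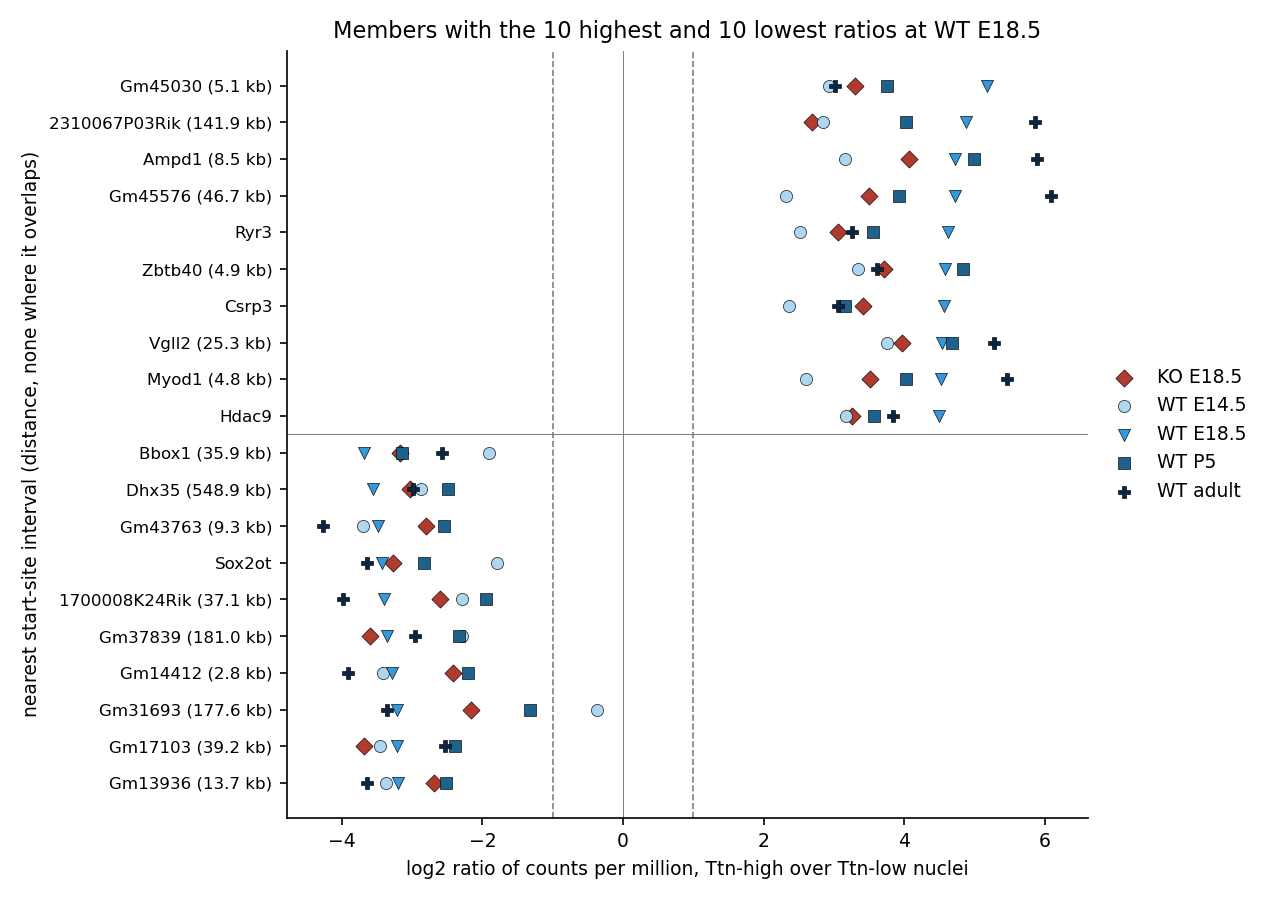
Log2 ratio of Ttn-high over Ttn-low ATAC CPM of the 10 members with the highest and the 10 with the lowest ratio at WT E18.5, with a symbol for each of the 5 libraries and the nearest start-site interval as row label; dashed lines mark 2-fold. All 20 keep their sign in every library, and 1 symbol, Gm31693 in WT E14.5 at −0.37, lies within 2-fold.

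At start sites, the lists of general use had no member past 2-fold, and each of the muscle lists had some. All 62 ribosomal members lay within 2-fold at E18.5 (median log2 0.01), and so did all 31 of the proteasome, all 27 of RNA polymerase II and general factors, all 10 of CTCF and cohesin, all 17 of the clock and all 10 each of the imprinted and Hox lists. With mean counts per nucleus in place of CPM, which moves every log2 ratio by 0.22, these 7 lists again had 0 members past 2-fold. Adult fast sarcomere genes were higher in Ttn-high nuclei at 9 of 11 members (median 3.46) and excitation-contraction coupling genes at 10 of 14 (median 2.08). Glycolysis and phosphagen genes were higher at 5 of 17, fusion and neuromuscular junction at 5 of 13, myogenic and maturation factors at 6 of 27, and fatty acid oxidation at 3 of 18. Embryonic and slow sarcomere genes were higher at 1 of 3 and lower at 0 (median 0.01). Lower members were 2 among the myogenic factors and 1 each among fusion, fatty acid oxidation and immediate early genes, and per nucleus 1, 0, 1 and 0. Over all E18.5 peaks the shares were 18.2% higher and 23.6% lower, and the median of members was −0.01. Among members that overlapped a start-site interval they were 6.53% higher and 4.92% lower. A count of 0 in a list of 10 or 17 members is near those shares.

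Ckm had the largest ratio among the start sites of the lists at WT E18.5. Its member at chr7:19410561-19411408 held 437 Ttn-high against 87 Ttn-low counts in KO, 365 against 70 in WT E14.5, 1078 against 80 in WT E18.5, 1164 against 48 at P5 and 4550 against 16 in adult. In CPM, the ratios were 7.13, 5.27, 19.6 (15.6 to 24.9 at WT E18.5), 24.1 and 49.0 in that order. The member over the start of Ttn at chr2:76982216-76983053 had 388 against 110 counts in KO, 469 against 68 in WT E14.5, 692 against 67 in WT E18.5, 769 against 21 at P5 and 2299 against 4 in adult, which gave 5.01, 6.97, 15.0, 36.3 and 99.0-fold. Both start sites were thus higher in Ttn-high nuclei of every library, and most in adult, where Ttn-low nuclei were fewest and had the lowest level. Ttn RNA made the split of nuclei, so the ratio at the Ttn start describes that split. Triadin (Trdn) and the fast troponin C gene Tnnc2 stood at 15.9-fold and 13.4-fold at WT E18.5. With Ttn-high set at 2% the log2 ratio at WT E18.5 was 2.87 for Ckm, against 4.29 at 1%, and 2.58 for Ttn, against 3.91.

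The start site of Cacna1s was called and counted in the KO as in WT. The member at chr1:136052363-136053163 held 208 Ttn-high and 46 Ttn-low counts in KO (36.2 and 5.64 CPM of peak counts), against 515 and 67 in WT E18.5 (34.7 and 3.11 CPM). The ratio was 6.42 in KO, 5.31 in WT E14.5, 11.2 in WT E18.5 (8.65 to 14.6), 11.8 at P5 and 22.2 in adult. A second member, centred 1181 bp before the gene, had 26.6 CPM in KO and 27.6 CPM in WT Ttn-high nuclei. Within the gene (chr1:136052750-136119822), 6 peaks were called in WT E18.5 and 3 in KO. WT peaks centred 8619 and 14012 bp after the start were called in all 4 WT libraries, at 21.5 and 23.2 CPM in WT E18.5 Ttn-high nuclei, and in KO no peak was called there. They lie in a gene that the KO allele deletes in part, and the extent of that deletion was not used here. A region without a called peak has no count in the table, which is not a count of 0. A peak 52200 bp after the start had 25.2 CPM in KO and 17.1 CPM in WT.

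At WT E18.5 the start sites of the myogenic regulators had smaller ratios than those of Ckm and Ttn. At the Myod1 start, 337 Ttn-high against 268 Ttn-low counts in KO gave a ratio of 1.78, and the ratios were 2.49 in WT E14.5, 5.35 in WT E18.5 (717 against 195), 6.37 at P5 and 46.8 in adult (2447 against 9). Myogenin (Myog), which drives differentiation, showed 2.15 in KO, 2.87 in WT E14.5, 5.81 in WT E18.5, 6.0 at P5 and 42.9 in adult. The level in Ttn-high nuclei moved little at Myod1, with 58.7 CPM in KO and 42.6, 48.3, 59.5 and 63.4 CPM across the WT stages, whereas that in Ttn-low nuclei was 32.9 CPM in KO and 17.1, 9.04, 9.34 and 1.35 CPM. The 8 progenitor markers summed to 570 CPM of RNA in Ttn-low nuclei of KO and 363, 328, 285 and 205 CPM in those of the WT stages, and their part in these ratios was not tested. Myf6 stood at 9.02-fold and the junction genes Rapsn and Chrnd at 5.41-fold and 3.65-fold in WT E18.5.

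General start sites showed no such spread. The ribosomal gene Rps27 had 286 Ttn-high and 354 Ttn-low counts in KO, 398 and 359 in WT E14.5, 499 and 591 in WT E18.5, 466 and 435 at P5 and 1444 and 216 in adult, and the ratios of CPM lay between 1.06 and 1.23. For Wapl they lay between 0.924 and 1.18 and for Polr2j between 0.778 and 1.17. On the lower side, the growth regulator Myc had 417 Ttn-high against 1302 Ttn-low counts in WT E18.5 (0.466-fold) and the ETS factor gene Elk3 stood at 0.363-fold.

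For genes with wide intervals the member with the most counts need not lie over the RefSeq promoter. At Mylpf it gave 0.924-fold (2115 Ttn-high and 3329 Ttn-low counts), but the peak over the RefSeq promoter printed above, called in 4 of 5 libraries, had 626 and 98 and stood at 9.29-fold (7.49 to 11.6). At Tpm1 it gave 0.507-fold, against 2.61-fold for the member over the RefSeq promoter. Mef2c has members over separate RefSeq promoters, at 5.89-fold and 0.492-fold. Among fatty acid oxidation genes, the counted members gave 11.0-fold at Cd36 and 3.93-fold at Esrrg. Members over RefSeq promoters stood at 1.118-fold for Cd36, at 1.165 and 1.712-fold for Esrrg and at 3.54-fold for Fabp3. Mb was counted as lower at 0.414-fold, but no E18.5 peak lay over its RefSeq promoters. Partial peaks at muscle start sites reached the ratios of members: Myh8 (4 of 5 libraries) stood at 13.8-fold, Myh3 (3 of 5) at 11.1-fold and the calcium pump gene Atp2a1 (4 of 5) at 8.90-fold.

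Promoter sequence separated these classes. Of 32851 RefSeq promoters of 300 bases (250 before the start and 50 after), 12880 (39.2%) lay over a member, 2744 (8.35%) over another peak and 17227 (52.4%) over none. Median GC content was 62.3% over members, 54.7% over other peaks and 47.0% over none, and the ratio of observed to expected CpG was 0.791 over members, 0.390 over other peaks and 0.202 over none. Of the promoters over members, 391 were at least 2-fold higher in Ttn-high nuclei, 12024 within 2-fold and 465 lower. Their CpG ratio was 0.388, 0.804 and 0.492 in that order, so the higher group stood near the promoters over other peaks.

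Motifs were searched on both strands, may overlap each other, and promoters of 1 gene can share a peak. The myogenic E-box CAGCTG was in 34.02% of the higher promoters (29.3 to 39.0%), against 14.7% of those within 2-fold (14.1 to 15.3%), 14.6% of the lower and 16.3% of all promoters. The MEF2 consensus was in 11.3% of the higher (8.30 to 14.8%), 1.26% of those within 2-fold (1.06 to 1.47%), 0.645% of the lower and 3.19% of all. CArG boxes, bound by SRF, stood at 3.84%, 1.12%, 1.72% and 1.63% in the same order. Sites of general activators ran the other way. NRF1 sites were in 3.84% of the higher promoters, 15.2% of those within 2-fold, 1.72% of the lower and 6.25% of all, ETS sites (CCGGAAGT) in 1.02%, 9.01%, 1.08% and 3.89%, and YY1 sites in 0.767%, 4.75%, 0.215% and 2.75%. GC boxes (GGGCGG) were in 36.3%, 69.8%, 57.4% and 35.7%, while the TATA box (TATAAA) was in 16.9%, 5.50%, 10.8% and 13.6%. These shares were not matched for base composition, which also differed between the groups of promoters.

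**Figure D4:**
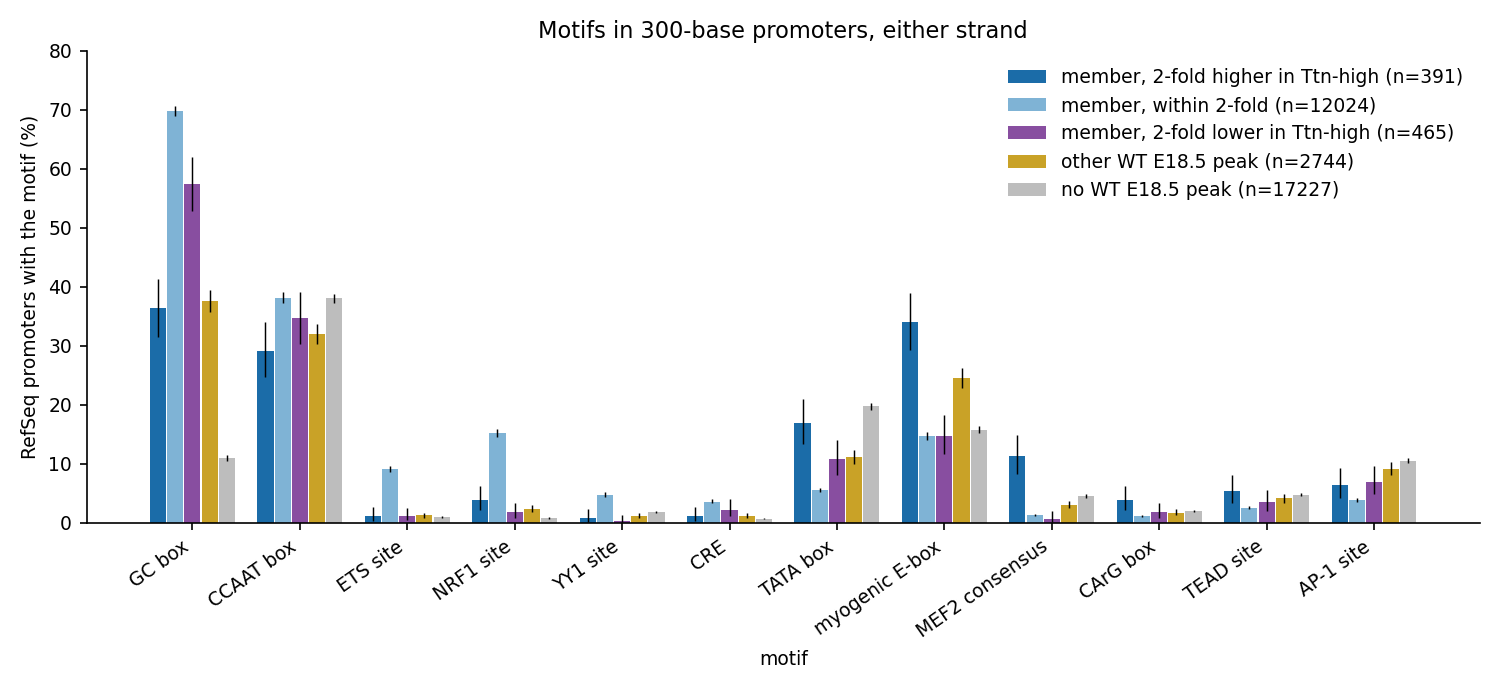
Percent of RefSeq promoters that hold each motif, for promoters over members by their Ttn-high over Ttn-low ratio at WT E18.5, for promoters over other peaks and for those over no E18.5 peak; lines on the bars are exact binomial 95% intervals. The E-box stands at 34.02% and the MEF2 consensus at 11.3% where members are higher in Ttn-high nuclei, against 14.7% and 1.26% where they are within 2-fold.

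RNA is a readout that the rule did not use. In Ttn-high nuclei, genes with a member at the start passed 2-fold in CPM at a smaller share than genes without one in each comparison. Genes with at least 20 UMIs in 1 of both libraries were read. For KO over WT at E18.5, 448 of 11643 such genes were higher (3.85%, beside 6.21% of all genes) and 434 lower (3.73%, beside 5.53%), whereas 17.99% and 15.2% of genes with another peak and 14.3% and 11.4% of genes with none were higher and lower. Genes with a member have more UMIs. With at least 100 UMIs, 2.34% of genes with a member were higher and 3.06% lower. The other genes stood at 11.6% and 11.0%. This floor does not match depth between genes with and without a member, and the part of depth was not tested. For E18.5 over E14.5, 15.0% of member genes were higher and 6.31% lower (beside 17.3% and 9.94% of all), and for P5 over E18.5 5.30% and 19.5% (beside 7.69% and 21.4%). For adult over E18.5 1027 were higher (8.79%, beside 10.3%) and 5018 lower (43.0%, beside 46.8%). The typical gene was itself lower in adult CPM, with a median log2 ratio of −0.88 over all genes and −0.76 over member genes. With a trimmed-mean scaling factor (log2 −0.84) the adult split of member genes was 22.0% higher and 26.4% lower, beside 22.4% and 31.4% of all genes, so the share of member genes that were higher was near that of all genes. The P5 split with such a factor was 9.26% and 10.8%, beside 12.0% and 12.8% of all.

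RNA of genes with a member at the start differed widely between stages in some lists. All 62 measured ribosomal protein genes were lower in adult than at E18.5 (median log2 −3.53), and 59 of 62 with the trimmed factor. The ATAC ratios of their members given above compare Ttn-high with Ttn-low nuclei within E18.5, which is a different contrast. Imprinted growth genes were lower at 9 of 10 (median −5.39, 8 of 10 with the trimmed factor) and fusion and neuromuscular junction genes at 11 of 13 (median −3.28, 9 with that factor). Clock genes were higher at 11 of 17 and lower at 2 (median 1.25, and 14 and 1 with that factor). Fatty acid oxidation genes were higher at 7 of 18 and lower at 0 (16 with that factor). Over all genes 10.3% were higher and 46.8% lower in adult CPM, and 22.4% and 31.4% with that factor. The ribosomal members in KO over WT gave 0 calls at a median log2 of 0.38.

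Named genes with members showed large RNA differences across stages. Thrb, a thyroid hormone receptor gene, stood at 16.8 CPM of RNA in KO and 8.07, 11.2, 127 and 1749 CPM in WT E14.5, E18.5, P5 and adult Ttn-high nuclei, so adult was 156-fold over E18.5 (132 to 185). Its member held 15.1 CPM of ATAC counts in KO and 16.8, 22.4, 26.2 and 70.8 CPM across the WT stages. Across the WT stages ATAC thus went the way of RNA at Thrb by a far smaller factor, while in KO RNA was 1.49-fold over WT E18.5 (1.20 to 1.87) and ATAC was the lower one. Pvalb, which encodes the calcium-binding protein parvalbumin, had 2 UMIs in KO (0.180 CPM of RNA, 45.6-fold lower than in WT E18.5, 12.3 to 381), 0 UMIs in WT E14.5, and 8.21, 202 and 704 CPM of RNA at WT E18.5, P5 and adult. Its ATAC level was 19.1 CPM in KO and 9.22, 30.1, 40.7 and 41.4 CPM across the WT stages. The nuclear receptor gene Nr4a3 was 34.5-fold higher in adult RNA, with ATAC at 59.2 CPM in adult and 47.6 CPM at E18.5. Esr1, the estrogen receptor gene, and Bhlhe41, a clock repressor gene, were 26.8-fold and 17.7-fold higher in adult RNA. The start-site intervals of Thrb and Esr1 are wide (320634 and 98167 bases).

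On the lower side, Mest, an imprinted gene of fetal growth, had 0.101 CPM of RNA in adult, from 2 UMIs, against 73.5 CPM at E18.5 (726-fold lower, 200 to 6002), and its ATAC level was 3.44 CPM in adult and 15.2 CPM at E18.5. Igf2, the fetal growth factor, was 468-fold lower in adult RNA with ATAC at 8.47 CPM in adult and 36.5 CPM at E18.5, and Plagl1, an imprinted zinc finger gene, was 358-fold lower with ATAC at 7.64 and 30.8 CPM. The acetylcholine receptor gene Chrnd had 0 adult UMIs against 29.0 CPM at E18.5, and its ATAC level was 2.33 CPM in adult and 24.4 CPM at E18.5. All 4 had a peak in adult, as the rule requires of every member, and RNA of 1.265 CPM or less in adult Ttn-high nuclei. Peaks were called over the whole library, Ttn-low nuclei included. In adult Ttn-low nuclei Mest had 13.8 CPM of ATAC and 16.9 CPM of RNA, and Plagl1 24.5 and 53.7 CPM. Igf2 had 9.92 and 1.53 CPM there, and Chrnd 0 counts and 0 UMIs. At WT E18.5, RNA in Ttn-low nuclei was 452 CPM for Mest and 1082 CPM for Plagl1, above the 73.5 and 272 CPM of Ttn-high nuclei. For Igf2 and Chrnd it was 223 and 6.86 CPM, below Ttn-high nuclei. Mesenchymal markers summed to 1108 CPM of RNA in Ttn-high nuclei of WT E18.5 and 44.9 CPM in those of adult. The part of RNA from other cells in these falls was not tested. Col25a1, a membrane collagen gene needed for innervation of muscle, was 177-fold lower in adult RNA. In KO it stood at 2758 CPM of RNA, against 538 CPM in WT E18.5 (5.13-fold higher, 5.00 to 5.27), and its member held 35.7 CPM of ATAC counts in KO and 19.2 CPM in WT. The rule asks for a peak in each library, so ATAC levels across libraries are given as a description.

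**Figure D5:**
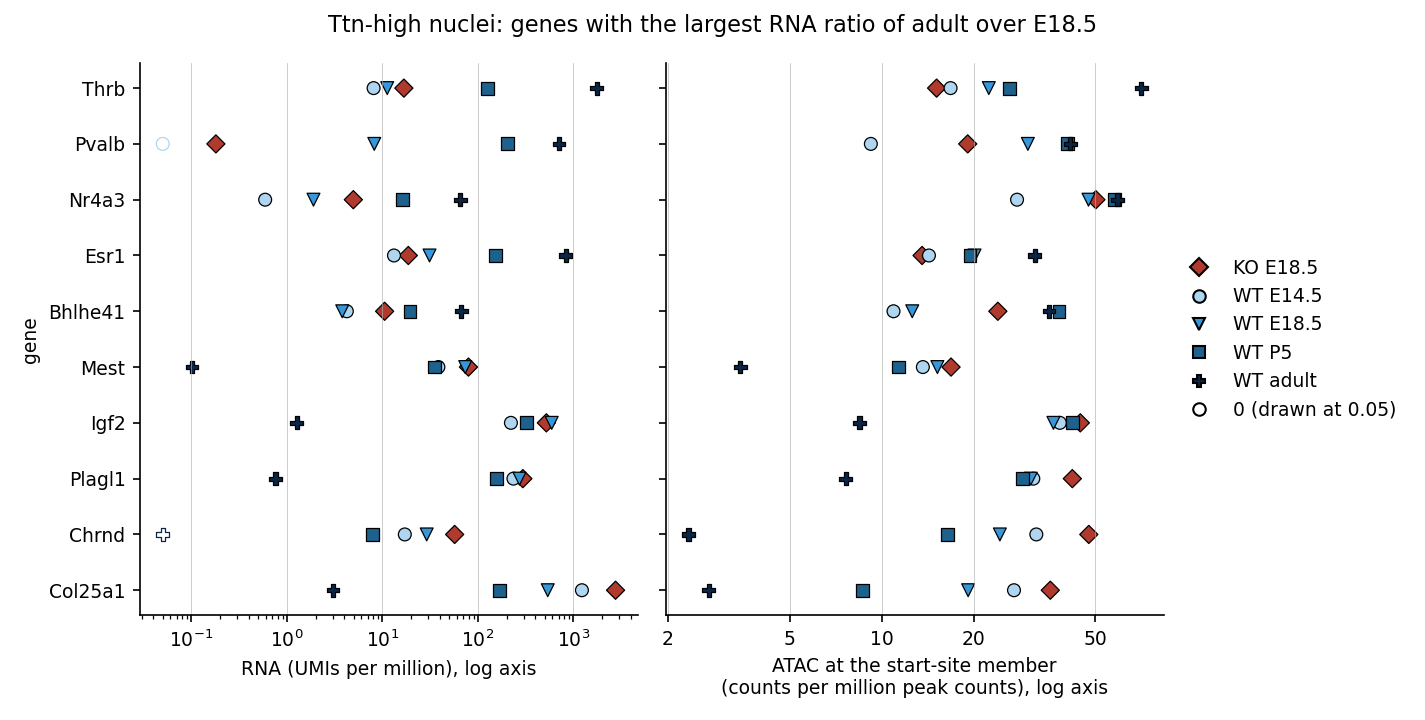
RNA level (CPM of gene UMIs, log scale) and ATAC level of the member at the start site (CPM of peak counts, log scale) in Ttn-high nuclei of each library for 10 named genes. Thrb spans 8.07 to 1749 CPM of RNA but 15.1 to 70.8 CPM of ATAC, and Mest stands at 0.101 CPM of RNA in adult with 3.44 CPM of ATAC.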

How the data were processed

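The deposited values are counts, RNA UMIs for genes and ATAC counts for peaks, all whole numbers. The authors ran Cell Ranger ARC 2.0.0 with default parameters against mm10, kept intronic reads and called peaks library by library, and the deposited counts are not normalized. Whether counting used the strand is not given in the sources used here. Nuclei were kept with 400 to 25000 UMIs (limits excluded), less than 10% of them mitochondrial, and fewer than 70000 counts in peaks, and doublets were not removed. Counts were summed over Ttn-high (Ttn at least 1% of gene UMIs) and Ttn-low nuclei and scaled to CPM, 2-fold is a rule of size, and peaks with fewer than 20 counts over both sums were left out of it. Ratios have exact conditional intervals, shares Clopper-Pearson intervals and levels exact Poisson intervals, all at 95%. A sum of 0 was set to 3 counts for its ratio. For other libraries, counts are those of the peaks that overlap a member.

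The members and the gene lists were chosen with earlier results of these data known. Named regions were the 10 highest and 10 lowest Ttn ratios among members with 200 or more counts, the 10 highest counts, the 2 highest and 2 lowest ratios in each list (50 or more counts) the 5 list genes with the highest and the 5 with the lowest adult over E18.5 RNA ratio, and the peaks at Ttn, Cacna1s and the myosin heavy chain genes. Of these, those described were picked after their values were seen, and so was Atp2a1, which the rule does not name. Start sites are the intervals in the gene rows of the files. Promoter sequences and motif shares come from RefSeq on GRCm38.p6, which is the build of mm10, and the printed runs were chosen after motif matches were seen. Alternatives for the start sites (narrow intervals alone, GENCODE vM21 starts) were chosen after seeing the data. The scripts, in Python 3.11.15 with numpy 2.4.6, pandas 2.3.3 and scipy 1.17.1, were tested on simulated data.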

Additional observations from a re-analysis of the deposited data

How the results depend on the processing

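The number of members was 31606, and 31225 to 31679 with a larger overlap or another library as the base, against 33307 to 37293 when 1 library was not required. The share of members within 1 kb of a start-site interval, 48.1%, was 46.7% from the peak centre, 45.5% for genes with 10 or more UMIs, 73.6% for peaks with 500 or more counts (38.8% of other peaks) and 34.2% with intervals of at most 1000 bases (5.82% of other peaks). The median log2 ratio of −0.01 was −0.046 when scaled to counts in members and 0.21 as a mean count per nucleus. For the other peaks it was −0.30, and −0.336 and −0.077 in that order. Members that were higher in Ttn-high nuclei numbered 4068 to 5279 and lower ones 2014 to 3195 over all settings run. Of RNA calls in genes with a member, E18.5 over E14.5 gave 1737 higher, and 1089 with at least 100 UMIs. P5 over E18.5 gave 615 higher and 2258 lower, but 1074 and 1251 with the trimmed factor and 1472 lower with at least 100 UMIs. Adult over E18.5 gave 1027 higher and 5018 lower, but 2569 and 3080 with the trimmed factor. KO over WT gave 448 higher and 434 lower, and 206 and 270 with at least 100 UMIs. With all barcodes members held 77.9% of peak counts in KO, 75.3% in WT E14.5, 70.7% in WT E18.5, 76.6% at P5 and 69.3% in adult. Of 534 values of 89 named regions over 6 settings, 131 moved beyond counting error and 0 changed sign after passing 2-fold. No paired analysis was possible because each group is 1 library, and no replicate could be left out. The search for CTCF cores in distal members was not run, since no genome sequence at distal members was used here.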
